A study of Homo sapiens with 18 samples.

Results

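Type IV collagen is the network-forming collagen of basement membranes, and its chains are encoded by the 6 genes COL4A1, COL4A2, COL4A3, COL4A4, COL4A5 and COL4A6. These genes were taken by name from a gene table of RPE-1 cells, in which all 6 were found among 33121 listed genes, and all 6 passed the filter on low counts that left 13676 genes for testing. RPE-1 is an hTERT-immortalized line from human retinal pigment epithelium. The 18 libraries form 6 groups of 3: cells with a small interfering RNA (siRNA) against MondoA (siMondoA), with one against its partner Mlx (siMlx), or with a control siRNA (siControl), each given doxorubicin (DXR) or left untreated. The siRNAs were transfected with Lipofectamine RNAiMax over 2 days, and DXR, an anthracycline that damages DNA, was then given at 150 ng/ml over 3 days. DXR libraries carry the tag D5 and untreated libraries D0 in the labels, which do not say what the tags mean. If they stand for days of harvest, an effect of DXR and an effect of day cannot be told apart.

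Type IV collagen chains assemble in threes inside the cell, are secreted, and join end to end and side by side into a sheet. COL4A1 and COL4A2 encode the α1 and α2 chains, which form the trimer found in nearly all basement membranes. COL4A3, COL4A4 and COL4A5 encode the α3, α4 and α5 chains, whose trimer is known from the filter of the kidney glomerulus and is affected in Alport syndrome. COL4A6 encodes α6, which assembles with α5 in some epithelial and smooth muscle basement membranes. In the eye, retinal pigment epithelium rests on a basement membrane that is part of Bruch's membrane. The genes lie head to head in pairs, each pair reading away from a shared stretch of promoter.

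On GRCh38, with GENCODE 29 gene bounds, COL4A1 spans chr13:110148963-110307233 on the minus strand and COL4A2 spans chr13:110305812-110513209 on the plus strand. COL4A4 spans chr2:227002711-227164453 on the minus strand and COL4A3 spans chr2:227164565-227314792 on the plus strand. COL4A6 spans chrX:108155607-108439497 on the minus strand and COL4A5 spans chrX:108439844-108697545 on the plus strand. The RefSeq start sites of a pair lie 127 bases apart for COL4A1 and COL4A2, 419 for COL4A4 and COL4A3, and 380 for COL4A6 and COL4A5, with a further COL4A6 start 1416 bases from that of COL4A5. The bounds of COL4A1 and COL4A2 overlap by 1422 bases on opposite strands, and those of COL4A3 overlap an antisense gene over 93741 bases. The strand setting of the counting is not given in the sources used here, so reads in these overlaps may be split or shared, and antisense reads cannot be told apart from COL4A3 reads. The listed antisense genes within COL4A2 had 0 to 3 counts in a library.

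The promoter windows are shown because both members of 2 pairs rose with DXR under all 3 siRNAs, while in the third COL4A5 did and COL4A6 passed the test with siControl, without a passing interaction with either other siRNA. Each window runs from 250 bases before to 50 bases after a RefSeq start site (GRCh38.p14), is written 5′ to 3′ on the strand of its gene, and has in capitals the motifs searched on both strands: CCAAT, the GC box GGGCGG, the CTC box CCCTCCCC, the TATA motif TATAAA and the E-box CACGTG. MondoA binds DNA together with Mlx at elements built of E-boxes.
COL4A2 (chr13:110307034-110307333, plus strand): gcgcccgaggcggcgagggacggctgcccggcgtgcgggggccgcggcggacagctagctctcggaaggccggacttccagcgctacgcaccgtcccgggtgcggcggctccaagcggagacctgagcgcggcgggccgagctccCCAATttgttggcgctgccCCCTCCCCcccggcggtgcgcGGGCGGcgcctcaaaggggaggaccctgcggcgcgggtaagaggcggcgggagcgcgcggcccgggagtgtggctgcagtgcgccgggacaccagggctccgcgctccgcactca
COL4A4 (chr2:227164156-227164455, minus strand): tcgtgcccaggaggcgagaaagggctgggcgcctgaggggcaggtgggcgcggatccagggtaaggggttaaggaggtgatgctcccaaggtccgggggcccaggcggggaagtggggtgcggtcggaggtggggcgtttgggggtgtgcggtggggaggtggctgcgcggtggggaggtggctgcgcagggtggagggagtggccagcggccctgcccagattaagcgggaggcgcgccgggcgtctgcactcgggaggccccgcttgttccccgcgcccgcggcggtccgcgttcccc
COL4A3 (chr2:227164374-227164673, plus strand): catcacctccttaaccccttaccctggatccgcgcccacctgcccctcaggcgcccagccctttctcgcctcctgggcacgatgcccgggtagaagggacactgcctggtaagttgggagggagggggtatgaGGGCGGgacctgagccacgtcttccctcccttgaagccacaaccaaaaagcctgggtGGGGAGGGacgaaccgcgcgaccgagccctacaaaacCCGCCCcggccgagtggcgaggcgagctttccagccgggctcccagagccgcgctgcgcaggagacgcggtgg
COL4A6 (chrX:108439409-108439708, minus strand): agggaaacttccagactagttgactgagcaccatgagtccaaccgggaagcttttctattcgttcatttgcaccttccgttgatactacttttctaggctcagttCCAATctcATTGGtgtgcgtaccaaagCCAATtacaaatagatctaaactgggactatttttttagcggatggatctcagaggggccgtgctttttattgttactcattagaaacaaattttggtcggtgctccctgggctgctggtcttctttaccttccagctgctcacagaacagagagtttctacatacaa
COL4A5 (chrX:108439588-108439887, plus strand): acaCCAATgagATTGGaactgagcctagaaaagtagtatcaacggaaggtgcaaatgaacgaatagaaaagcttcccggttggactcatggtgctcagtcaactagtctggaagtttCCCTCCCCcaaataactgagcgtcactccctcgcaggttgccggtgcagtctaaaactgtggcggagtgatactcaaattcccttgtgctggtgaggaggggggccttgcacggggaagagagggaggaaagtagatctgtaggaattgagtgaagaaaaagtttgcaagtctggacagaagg
The COL4A2 window also holds the COL4A1 start site. CCAAT was found in the windows of COL4A1, COL4A2, COL4A5 and COL4A6, the GC box in those of COL4A1, COL4A2 and COL4A3 and at the further COL4A6 start, and the CTC box in those of COL4A1, COL4A2, COL4A3 and COL4A5. No match overlapped another. The COL4A4 window held none of the 5 motifs, and neither TATAAA nor CACGTG was found in any window of the family. Among all 35116 RefSeq windows of this length, 34.6% held CCAAT, 44.9% the GC box, 13.6% the CTC box, 11.5% TATAAA and 7.26% CACGTG. A match in letters is a description of the window and was not tested against the expression values.

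Total counts ran from 15503423 to 29219280 per library. The siRNA targets were low where the labels place the siRNA. MLXIP, the gene of MondoA, averaged 3.85 ± 0.65 CPM with siMondoA and 68.7 ± 4.6 CPM with siControl in untreated cells (SD, n = 3 each). MLX averaged 7.0 ± 0.18 CPM with siMlx and 26.3 ± 0.95 CPM with siControl there. Of 14 retinal pigment epithelium markers, 8 (RPE65, RLBP1, TYR, PMEL, DCT, LRAT, TTR and SERPINF1) stayed under 1 CPM in every library, while KRT8, KRT18, MITF and OTX2 were at 10.7 CPM or more in all of them. The label therefore stands for the line and not for pigmented tissue. Separate cultures are not stated for the replicates, so the p-values rest on the spread among these libraries, which may be technical. In bulk RNA, fewer cells of a type and less RNA per cell cannot be told apart.

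Levels of the 6 genes were compared with each other per length, in RPKM (reads scaled by gene length and by mapped reads), and libraries were compared in CPM (counts scaled to the library size after TMM). In DXR-treated cells over the 3 siRNAs, the order of mean RPKM was COL4A1, COL4A2, COL4A5, COL4A4, COL4A6 and COL4A3. COL4A1 ran from 201.0 to 307.9 RPKM and COL4A2 from 152.6 to 289.7 RPKM, so these neighbours overlapped. COL4A5 followed at 26.7 to 33.4 RPKM, COL4A4 at 3.79 to 7.31, COL4A6 at 0.686 to 1.12 and COL4A3 at 0.545 to 0.897. Of neighbours in that order, COL4A1 overlapped COL4A2 and COL4A6 overlapped COL4A3, and the others did not overlap.

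In untreated cells the order differed at its lower end. COL4A2 ran from 80.9 to 114.8 RPKM and COL4A1 from 71.7 to 113.1 RPKM, again overlapping. COL4A5 ran from 8.32 to 15.8 RPKM, COL4A6 from 0.592 to 1.23, COL4A4 from 0.128 to 0.513 and COL4A3 from 0.0144 to 0.0671. COL4A4 thus stood above COL4A6 in all 9 DXR libraries and below it in all 9 untreated libraries. COL4A3 rested on 87 to 139 counts in a DXR library and on 2 to 16 counts in an untreated one, so its untreated level is known only roughly.

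The summed RPKM of the family was 514.3 ± 77.0 in DXR libraries and 199.5 ± 24.9 in untreated libraries (SD, n = 9 each), and the ranges of 431.5 to 631.2 and 168.9 to 240.0 did not overlap. COL4A1 and COL4A2 together made up most of it in both. COL4A1 held 50.2% ± 2.4 of the sum in DXR libraries and 44.9% ± 2.5 in untreated libraries. COL4A2 held 42.5% ± 3.2 and COL4A5 5.91% ± 1.07 in DXR libraries, against 48.4% ± 2.7 and 6.07% ± 0.90 in untreated libraries. The α3 and α4 genes stayed a small part of the family. COL4A4 held 1.09% ± 0.33 and COL4A3 0.138% ± 0.027 in DXR libraries, against 0.142% ± 0.063 and 0.0175% ± 0.0099 in untreated libraries. COL4A6 held 0.176% ± 0.047 in DXR libraries and 0.428% ± 0.132 in untreated libraries, and these ranges of 0.115% to 0.242% and 0.287% to 0.728% did not overlap.

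**Figure D1:**
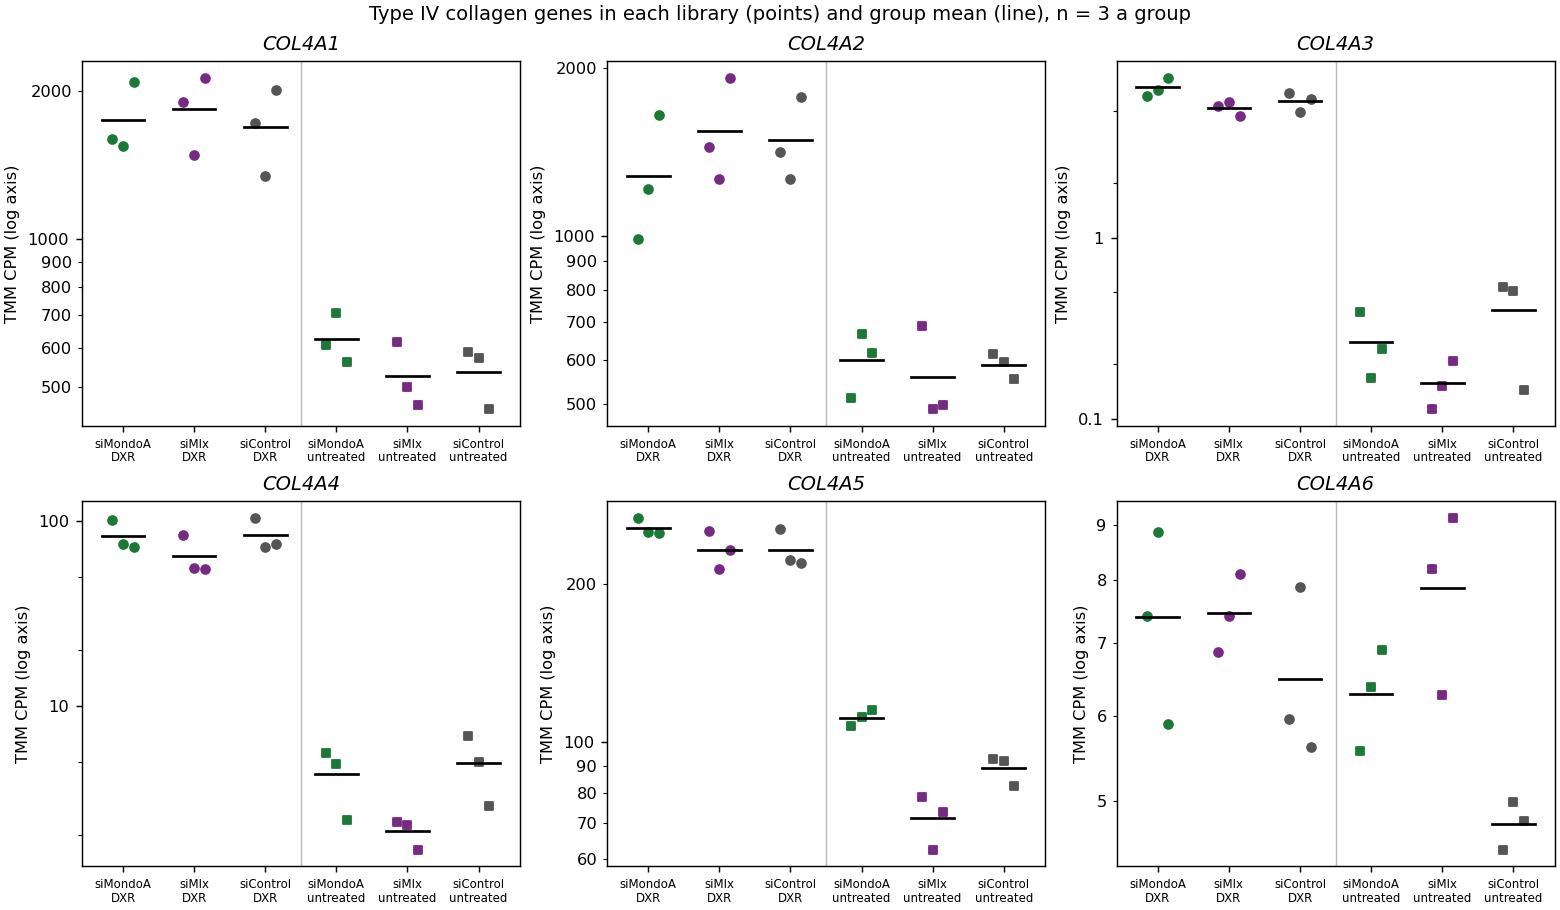
Levels of the 6 type IV collagen genes in each library, in CPM after TMM scaling on a log axis, with DXR groups left of the grey line and untreated groups right of it. Points are libraries and black lines are means of 3. For COL4A1 to COL4A5 every DXR library lies above every untreated one, while COL4A6 spans 5.61 to 8.87 CPM with DXR and 4.51 to 9.13 CPM without. The share of all genes separated in this way is not given here. COL4A3 passed the count filter mostly through DXR libraries (9 of 9, and 2 of 9 untreated).

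DXR was compared with no treatment in cells with siControl, which asks how the genes differ in drug-treated cells when neither MondoA nor Mlx is depleted. All 6 type IV collagen genes rose, where 28.1% of all genes tested were called higher and 28.6% lower (edgeR quasi-likelihood test, adjusted p under 0.05). COL4A3 passed the count filter through its DXR libraries, of which 9 of 9 reached the minimum against 2 of 9 untreated libraries, so its call is given as a description. The median log2 fold change over all genes tested was -0.01. The rises were 17.0-fold for COL4A4, 14.4-fold for COL4A3, 3.14-fold for COL4A1, 2.61-fold for COL4A5, 2.52-fold for COL4A2 and 1.36-fold for COL4A6.

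COL4A1, of the common trimer, had 1720, 1343 and 2004 CPM in siControl DXR libraries, against 589.2, 574.2 and 450.9 CPM in siControl untreated libraries. The groups stood far apart, with a log2 fold change of 1.65 (SE 0.16, adjusted p = 5.38e-08 by edgeR). Its partner COL4A2 had 1412, 1261 and 1769 CPM in siControl DXR libraries, against 614.3, 593.1 and 553.3 CPM in siControl untreated libraries. These groups did not overlap either, and the log2 fold change was 1.34 (SE 0.18, adjusted p = 3.07e-06 by edgeR). In both genes the second DXR library was the lowest and the third the highest.

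COL4A3, of the glomerular type of trimer, had 6.32, 4.92 and 5.85 CPM in siControl DXR libraries, against 0.535, 0.509 and 0.144 CPM in siControl untreated libraries. COL4A4 had 104.5, 72.1 and 75.4 CPM in siControl DXR libraries, against 6.86, 4.99 and 2.89 CPM in siControl untreated libraries. Every DXR library lay above every untreated one for both genes. The log2 fold change was 3.85 for COL4A3 (SE 0.26, adjusted p = 5.65e-10 by edgeR) and 4.09 for COL4A4 (SE 0.25, adjusted p = 1.73e-10 by edgeR). Counted from the largest rise, COL4A4 stood 33rd and COL4A3 41st of 13676 genes. For COL4A3 the p and the rank are descriptions, given its route through the count filter.

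COL4A5, shared by the α3α4α5 and the α5α6 trimers, had 254.7, 222.3 and 220.2 CPM in siControl DXR libraries, against 93.1, 92.0 and 82.5 CPM in siControl untreated libraries. Its log2 fold change of 1.38 had the smallest SE of the family in this comparison (SE 0.08, adjusted p = 8.90e-11 by edgeR). COL4A6 had 5.96, 7.88 and 5.61 CPM in siControl DXR libraries, against 4.51, 4.99 and 4.80 CPM in siControl untreated libraries. The groups did not overlap but lay close, with a log2 fold change of 0.45 (SE 0.17, adjusted p = 0.0283 by edgeR). That call was lost when siControl untreated replicate 1 (adjusted p = 0.0851), siControl untreated replicate 3 (adjusted p = 0.0580) or siControl DXR replicate 2 (log2 fold change 0.27, adjusted p = 0.211) was left out.

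The same contrast in cells with either other siRNA gave 5 of 6 genes higher, without COL4A6, where 26.2% of all genes were called higher with siMondoA and 30.9% with siMlx. The call of COL4A3 is again a description, given its route through the count filter. With siMondoA, the log2 fold changes were 1.47 for COL4A1, 1.10 for COL4A2, 4.68 for COL4A3, 4.26 for COL4A4 and 1.21 for COL4A5. With siMlx, they were 1.80 for COL4A1, 1.46 for COL4A2, 4.99 for COL4A3, 4.95 for COL4A4 and 1.70 for COL4A5. For COL4A6 they were 0.24 with siMondoA (adjusted p = 0.234 by edgeR) and -0.07 with siMlx (adjusted p = 0.715 by edgeR). COL4A6 averaged 7.46 ± 0.62 CPM in siMlx DXR libraries and 7.86 ± 1.46 CPM in siMlx untreated libraries (SD, n = 3 each), and the groups overlapped.

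Whether an siRNA changed the response to DXR was tested as an interaction. None of the 6 genes passed for siMondoA, where 10.1% of all genes did, and none for siMlx, where 12.2% did. The smallest adjusted p was that of COL4A5 with siMlx, whose DXR response was larger by 0.32 on the log2 scale than with siControl (SE 0.11, adjusted p = 0.0721 by edgeR, unadjusted p = 0.0108). For COL4A6 the DXR response with siMlx was -0.52 relative to that with siControl (SE 0.23, adjusted p = 0.159 by edgeR), and that with siMondoA was -0.21 (adjusted p = 0.651 by edgeR). With 1 library left out, the interaction of COL4A5 with siMlx passed in 4 of 12 fits, without siControl untreated replicate 3, siMlx untreated replicate 1, siControl DXR replicate 1 or siMlx DXR replicate 2 (lowest adjusted p = 0.0337 by edgeR). That of COL4A3 with siMlx passed without siControl untreated replicate 3 (1.56, adjusted p = 0.0295 by edgeR), against 1.14 with all libraries (adjusted p = 0.194). At an unadjusted p under 0.05 by edgeR, 0 of 6 genes passed for siMondoA and 2 (COL4A5 and COL4A6) for siMlx. Of all 13676 genes tested, 3345 passed at that p for siMondoA and 3544 for siMlx. DESeq2 called 0 and 1 (COL4A5, adjusted p = 0.0380), and its share over all genes is not given here. With the replicate block, COL4A4 (0.81, adjusted p = 0.0223 by edgeR) and COL4A5 (0.32, adjusted p = 0.0254 by edgeR) passed for siMlx. Without the count filter they passed too, at 0.88 for COL4A4 (adjusted p = 8.82e-06 by edgeR) and 0.34 for COL4A5 (adjusted p = 0.00960 by edgeR). A p that misses the threshold does not show that responses were alike.

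Markers of other cell types were read in the same libraries. The 9 fibroblast markers summed to 831.4 to 936.4 CPM in siControl DXR libraries and to 530.1 to 610.4 CPM in siControl untreated libraries, with COL3A1 and LUM under 1 CPM throughout. The retinal pigment epithelium markers, mostly KRT8 and KRT18, summed to 1165 to 1222 CPM in siControl DXR libraries and to 555.2 to 741.6 CPM in siControl untreated libraries. The 7 endothelial markers summed to 5.17 to 5.35 CPM and 4.98 to 6.28 CPM in the same groups, with PECAM1, CDH5, CLDN5 and EMCN under 1 CPM in every library. The 4 markers of other epithelia summed to at most 0.393 CPM in any library. The 4 blood markers summed to 3.12 to 4.60 CPM in siControl DXR libraries and to 0.917 to 1.95 CPM in siControl untreated libraries, with HBB at 0 throughout, CD14 under 1 CPM, and both tested members (PTPRC and CD34) higher. CD34 passed the count filter mostly through DXR libraries (9 of 9, and 2 of 9 untreated), so its call is given as a description. The fibroblast, retinal pigment epithelium and blood sums thus moved with DXR. Among 7 tested fibroblast markers, 5 were higher and 2 lower. Among 6 tested retinal pigment epithelium markers, 3 were higher and 1 lower, and among 4 endothelial ones, 2 were higher and 1 lower. Over all genes, 28.1% were called higher and 28.6% lower. COL1A2 and TYRP1 passed the count filter through DXR libraries alone, so any call of theirs is a description. The part of these markers in the type IV collagen result was not tested.

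**Figure D2:**
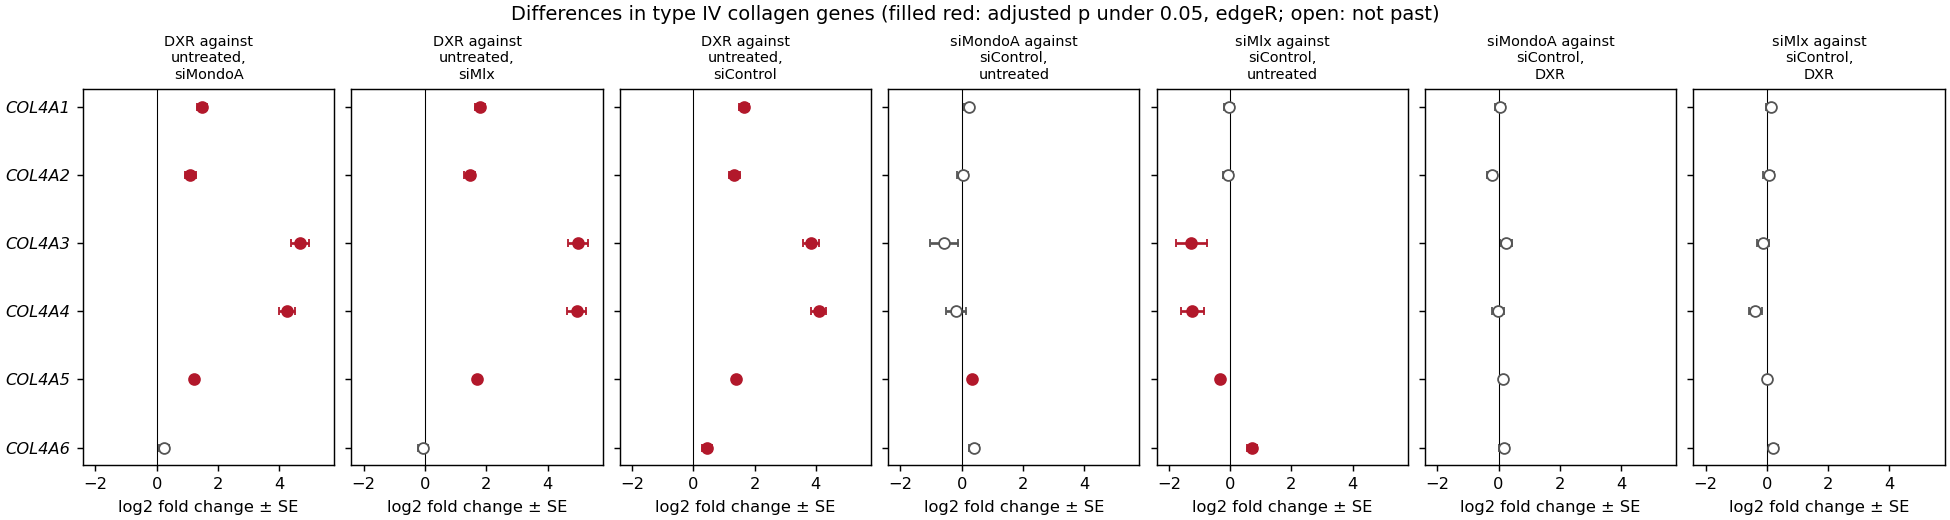
Log2 fold changes of the 6 genes with their SE in 7 comparisons, from edgeR. Filled red points passed an adjusted p of 0.05 and open points did not. DXR gave 1.10 to 4.99 for COL4A1 to COL4A5 with all 3 siRNAs, while the siRNA comparisons lay between -1.26 and 0.72.

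The balance within each head-to-head pair was followed as a ratio of RPKM in the same library. The ratio tests were added after the ratios were seen, so their p-values are given as a description. A change of a ratio with DXR restates the unlike fold changes of its genes in the same libraries, so its p-value is no further support. COL4A1 to COL4A2 was 1.19 ± 0.16 in DXR libraries and 0.933 ± 0.105 in untreated libraries (SD, n = 9 each), with ranges of 1.02 to 1.55 and 0.782 to 1.14 that overlapped. Within siControl alone it was 1.17, 1.02 and 1.09 in DXR libraries, against 0.920, 0.929 and 0.782 in untreated libraries. COL4A1 was thus the lower of the pair in every siControl untreated library and the higher in every siControl DXR library. On the log2 scale the ratio was higher by 0.35 with DXR over the 3 siRNAs, and an exact two-sided permutation test with labels exchanged within siRNA gave p = 0.00025, the smallest it can give (adjusted p = 0.001125 over 18 ratio tests). Within a single siRNA, the exact permutation test of 3 libraries against 3 cannot go below p = 0.1.

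COL4A5 to COL4A6 had the largest log2 difference of the 3 pairs. The ratio was 34.7 ± 6.2 in DXR libraries and 15.3 ± 4.7 in untreated libraries (SD, n = 9 each), and the ranges of 28.3 to 42.8 and 8.09 to 20.7 did not overlap. The log2 difference was 1.24 (exact permutation test within siRNA, p = 0.00025, adjusted p = 0.001125). By siRNA the log2 difference was 0.98 with siMondoA, 1.77 with siMlx and 0.95 with siControl. The siMlx value comes with the lowest untreated ratios, 9.62, 9.99 and 8.09, against 20.7, 18.5 and 17.2 in siControl untreated libraries. Over both treatments the ratio differed by -0.62 on the log2 scale between siMlx and siControl, which did not pass after adjustment (exact permutation test within treatment, p = 0.02, adjusted p = 0.072). None of the 12 siRNA tests among the 18 passed after adjustment.

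COL4A3 to COL4A4 was the pair whose balance did not pass the test. Its ratio was 0.132 ± 0.029 in DXR libraries and 0.126 ± 0.049 in untreated libraries (SD, n = 9 each), with a log2 difference of 0.15 (exact permutation test within siRNA, p = 0.545, adjusted p = 0.701). The low COL4A3 counts in untreated cells leave room for a difference of this ratio that was not detectable at this depth. Against the common pair, COL4A4 to COL4A2 was 0.0262 ± 0.0099 in DXR libraries and 0.00296 ± 0.00141 in untreated libraries, a log2 difference of 3.20 (exact permutation test, p = 0.00025, adjusted p = 0.001125). COL4A5 to COL4A4 was 5.66 ± 1.00 in DXR libraries and 49.9 ± 20.4 in untreated libraries, a log2 difference of -3.05 (exact permutation test, p = 0.00025, adjusted p = 0.001125). Both p-values restate the unlike fold changes of these genes in the same libraries and are no further support. COL4A5 to COL4A1 was 0.118 ± 0.020 in DXR libraries and 0.135 ± 0.021 in untreated libraries, a log2 difference of -0.20 that did not pass (exact permutation test, p = 0.0588, adjusted p = 0.117).

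**Figure D3:**
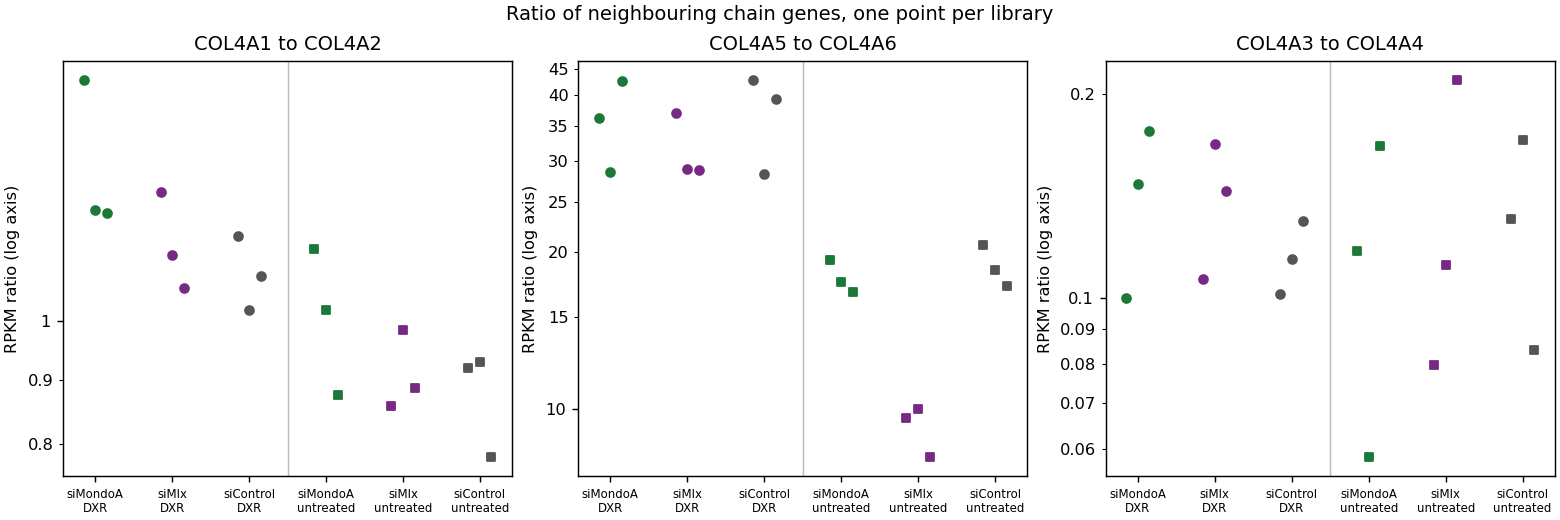
Ratio of RPKM of the 3 head-to-head gene pairs in each library, on log axes, with DXR groups left of the grey line. COL4A5 to COL4A6 runs from 28.3 to 42.8 in DXR libraries and from 8.09 to 20.7 in untreated libraries, while COL4A3 to COL4A4 overlaps throughout.

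Depletion of MondoA was compared with siControl in untreated cells, which asks whether the genes depend on it without the drug. COL4A5 rose, where 23.3% of all genes tested were called higher and 23.3% lower. It had 107.2, 111.7 and 115.3 CPM in siMondoA untreated libraries, against 93.1, 92.0 and 82.5 CPM in siControl untreated libraries. The groups did not overlap, and the log2 fold change was 0.32 (SE 0.08, adjusted p = 0.00287 by edgeR). COL4A6 had 5.57, 6.38 and 6.89 CPM in siMondoA untreated libraries, against 4.51, 4.99 and 4.80 CPM in siControl untreated libraries. Its groups did not overlap either, but its log2 fold change of 0.40 missed the threshold (SE 0.17, adjusted p = 0.0571 by edgeR) and passed it with upper-quartile scaling (adjusted p = 0.0355), without the count filter (adjusted p = 0.0472), with these groups fitted alone (adjusted p = 0.0286) or without siMondoA untreated replicate 1 (adjusted p = 0.0487). The log2 fold changes of COL4A1 (0.22), COL4A2 (0.03), COL4A3 (-0.58) and COL4A4 (-0.18) did not pass, and with 1 library left out they ran from 0.11 to 0.29 for COL4A1 and from -1.01 to -0.21 for COL4A3.

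Depletion of Mlx in untreated cells gave 4 of 6 genes past the threshold, 3 lower and 1 higher, where 24.9% of all genes were called higher and 23.0% lower. COL4A5 fell, with 78.7, 62.4 and 73.7 CPM in siMlx untreated libraries, against 93.1, 92.0 and 82.5 CPM in siControl untreated libraries. Its log2 fold change was -0.32 (SE 0.08, adjusted p = 0.00341 by edgeR). COL4A6, its neighbour, rose, with 8.20, 6.26 and 9.13 CPM in siMlx untreated libraries, against 4.51, 4.99 and 4.80 CPM in siControl untreated libraries. Its log2 fold change was 0.72 (SE 0.16, adjusted p = 0.00117 by edgeR). For neither gene did the groups overlap, and both calls held when any 1 library of these groups was left out.

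COL4A4 fell with siMlx in untreated cells, with 2.36, 2.27 and 1.67 CPM in siMlx untreated libraries, against 6.86, 4.99 and 2.89 CPM in siControl untreated libraries. Its log2 fold change was -1.23 (SE 0.39, adjusted p = 0.0125 by edgeR). The siControl libraries were spread widely, and the call was lost without siControl untreated replicate 1 (log2 fold change -0.86, adjusted p = 0.110) or without siMlx untreated replicate 3 (adjusted p = 0.0536). COL4A3 fell with a log2 fold change of -1.26 (SE 0.51, adjusted p = 0.0478 by edgeR), on 2, 3 and 4 counts in siMlx untreated libraries and 16, 10 and 4 counts in siControl untreated libraries. Those counts overlapped, and the call was lost in 5 of 6 fits that left out a library (without siControl untreated replicate 1 or 2, or without any 1 siMlx untreated library), with highest adjusted p = 0.234. COL4A1 and COL4A2 had log2 fold changes of -0.03 and -0.07, neither past the threshold.

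Cell type markers were read in the same siRNA comparisons in untreated cells. The retinal pigment epithelium markers summed to 362.9 to 456.1 CPM in siMlx untreated libraries and to 555.2 to 741.6 CPM in siControl untreated libraries, with 4 of 6 tested members lower (median log2 fold change -0.60). With siMondoA the sum was 628.6 to 845.3 CPM, with 1 of 6 higher and 1 lower. The endothelial sum was 3.28 to 3.93 CPM with siMlx and 2.81 to 3.79 CPM with siMondoA, against 4.98 to 6.28 CPM with siControl. The blood sum was 0.393 to 0.656 CPM with siMlx and 1.18 to 1.93 CPM with siMondoA, against 0.917 to 1.95 CPM with siControl. Of 7 tested fibroblast markers, 1 was higher and 2 lower with siMlx, and 2 were higher and 2 lower with siMondoA. Over all genes tested in untreated cells, 24.9% were called higher and 23.0% lower with siMlx, and 23.3% higher and 23.3% lower with siMondoA. TYRP1 and COL1A2, among the tested markers, passed the count filter through DXR libraries alone, so any call of theirs is a description. The part of the cell type markers in the siRNA results was not tested.

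In DXR-treated cells none of the 6 genes passed for either siRNA. With siMondoA, 10.9% of all genes were called higher and 13.9% lower there, and with siMlx 14.0% and 16.2%. At an unadjusted p under 0.05 by edgeR the count was also 0 of 6 for each siRNA. Of all 13676 genes tested, 4874 passed at that p with siMondoA and 5503 with siMlx. DESeq2 called 0 of 6 for each siRNA, and its share over all genes is not given here. The log2 fold changes ran from -0.21 for COL4A2 to 0.25 for COL4A3 with siMondoA. With siMlx they ran from -0.37 for COL4A4 to 0.20 for COL4A6. COL4A4 had 84.1, 55.8 and 54.8 CPM in siMlx DXR libraries, against 104.5, 72.1 and 75.4 CPM in siControl DXR libraries. These groups overlapped as pools, while each siMlx library lay below the siControl library of the same number. With the replicate number as a block, COL4A4 had a log2 fold change of -0.38 with siMlx (SE 0.10, adjusted p = 0.00574 by edgeR), against an adjusted p of 0.178 without it.

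The siRNAs were also set against each other. In untreated cells COL4A5 was higher with siMondoA than with siMlx, at 111.4 ± 4.1 CPM and 71.6 ± 8.3 CPM (SD, n = 3 each; log2 fold change 0.64, SE 0.08, adjusted p = 1.50e-06 by edgeR), where 58.9% of all genes differed in either direction. COL4A4 was also higher, at 4.27 ± 1.65 CPM with siMondoA and 2.1 ± 0.38 CPM with siMlx (log2 fold change 1.05, adjusted p = 0.0343 by edgeR). That call held in 1 of 6 fits that left out a library (lost without siMondoA untreated replicate 1 or 2, or without any 1 siMlx untreated library), with highest adjusted p = 0.130. In DXR-treated cells, where 39.0% of all genes differed, none of the 6 did by edgeR, by DESeq2 or at an unadjusted p under 0.05 (0 of 6 each). At that unadjusted p by edgeR, 6390 of 13676 genes passed in DXR-treated cells, and the DESeq2 share is not given here. COL4A4 had a log2 fold change of 0.36 there (adjusted p = 0.176 by edgeR), and 0.37 with the replicate block (adjusted p = 0.00573). The siRNA comparisons share the siControl libraries within a treatment, so they are not independent of each other.

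Genes whose level followed each member most closely over the 18 libraries were named by Pearson's r of log2 CPM, as a description. All points share the 6 groups, so a gene that rises with DXR scores high by that alone. The order rests on the measure: by Spearman's rho, 0 of the 5 genes stayed among the first 5 for COL4A3 and for COL4A4, 1 for each of COL4A1, COL4A2 and COL4A5, and 3 for COL4A6. COL4A3 was most like COL4A4 (r = 0.985, and 101st by Spearman's rho, at 0.893), followed by POSTN, GLIPR1, P4HA2 and FIBCD1. COL4A4 was most like SLC12A4 (r = 0.995), GLIPR1, SPARC, P4HA2 and PRNP. SPARC encodes a secreted protein that binds collagen IV, and P4HA2 a subunit of the enzyme that hydroxylates collagen prolines.

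COL4A1 was most like SLC39A13 (r = 0.988), FILIP1L, ABTB2, GAS6 and PTPRM, with COL4A2 in 34th place (r = 0.974). COL4A2 was most like CCDC80 (r = 0.984), MAN2B2, APP, CERCAM and SHROOM3, with COL4A1 in 8th place. After each group's mean was taken off, COL4A1 and COL4A2 still moved together from library to library, with r = 0.828, against 0.467 for COL4A3 and COL4A4 and 0.242 for COL4A5 and COL4A6. The pairs differ in counting noise: COL4A1 had 8820 to 41787 counts a library, COL4A6 98 to 175, and COL4A3 2 to 16 in untreated cells. COL4A1 and COL4A2 also overlap by 1422 bases, with the strand setting not given. The part of noise and overlap in these r values was not tested. COL4A5 was most like ERV3-1 (r = 0.988), FUCA1, PAM, MMP24 and TNFAIP1, and its neighbour COL4A6 stood at place 5253 of 13675 (r = 0.266). COL4A6 had no gene above r = 0.822, the value of SYT7, followed by RALGPS1, TTC28, ZDHHC4 and PEX26.

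The genes that work with type IV collagen were read in the same DXR contrast with siControl, as counts of tested members and their median log2 fold change beside the -0.01 of all genes. Counts cover genes that passed the count filter, and 28.1% of all genes were called higher and 28.6% lower here. Of the 14 tested basement membrane partners, 11 rose and 1 fell, with a median of 0.63. The laminin chains LAMC1 (0.67, adjusted p = 5.14e-08) and LAMB2 (0.62, adjusted p = 7.61e-07) rose, as did HSPG2, which encodes perlecan (1.09, adjusted p = 1.08e-07; all by edgeR). NID1, which encodes the linker nidogen-1 between laminin and collagen IV, fell to 66.3 CPM in siControl DXR libraries, against 100.1 CPM in siControl untreated libraries (log2 fold change -0.59, adjusted p = 7.71e-07 by edgeR).

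Of 20 tested genes of chain processing and export, 10 rose and 1 fell, with a median of 0.28. The risers named by the smallest p hydroxylate collagen: the lysyl hydroxylases PLOD1 (log2 fold change 0.96) and PLOD2 (0.79), and the prolyl hydroxylase subunits P4HA2 (0.97) and P4HA1 (0.79). MIA3, an export receptor for bulky collagens at the endoplasmic reticulum, fell by 0.15 on the log2 scale (adjusted p = 0.0280 by edgeR). SERPINH1, the collagen chaperone HSP47, had a log2 fold change of -0.03 that did not pass.

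Of 7 genes for cross-linking and binding, 6 rose and 1 fell, with a median of 0.79. Among the risers, LOXL4 passed the count filter mostly through DXR libraries (8 of 9, and 2 of 9 untreated), so its call is given as a description. SPARC averaged 5519 CPM in siControl DXR libraries and 2433 CPM in siControl untreated libraries (log2 fold change 1.18, adjusted p = 5.61e-11 by edgeR). LOX (0.79) and LOXL2 (0.95), which oxidise collagen lysines, rose, and PXDN, the peroxidase that makes the sulfilimine bond of collagen IV, rose by 0.36 (adjusted p = 0.00128 by edgeR). LOXL3 fell by 0.54 on the log2 scale. Of 8 tested collagen receptors, 5 rose and none fell, with a median of 0.41. DDR1 had a log2 fold change of 0.95, ITGA11 of 1.33, ITGB1 of 0.47 and ITGA2 of 0.35.

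Of 8 tested proteases and inhibitors, 5 rose and 2 fell, with a median of 0.53. The collagen IV-cleaving gelatinase gene MMP2 rose by 0.58 and its activator MMP14 by 0.56, beside the inhibitors TIMP2 (0.54) and TIMP1 (0.54). TIMP4 fell by 0.89, and MMP1 fell to 0.0170 CPM in siControl DXR libraries, against 0.530 CPM in siControl untreated libraries. MMP1 passed the count filter through untreated libraries alone (6 of 9, and 0 of 9 with DXR), so its call is given as a description. Of 17 genes of the TGF-beta pathway, 6 rose and 8 fell, with a median of -0.14. The ligand TGFB2 (1.08) and the target CCN2 (0.76) rose. The receptor TGFBR2 fell by 0.53, and the signal carriers SMAD3 and SMAD4 by 0.29 and 0.30.

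Other collagens were compared for scale. Of 8 tested fibrillar collagens, 5 rose and none fell, with a median of 0.94, among them COL11A1 (2.20), COL27A1 (1.69), COL1A1 (1.11) and COL5A2 (0.77). The fifth, COL1A2 (1.99), passed the count filter through DXR libraries alone (5 of 9, and 0 of 9 untreated), so its call is given as a description. Of 6 other network-forming and beaded collagens, 4 rose and none fell, with a median of 1.23, namely COL10A1 (3.59), COL6A1 (1.91), COL8A2 (1.69) and COL8A1 (0.77). COL10A1 averaged 0.530 CPM in siControl DXR libraries and 0.0343 CPM in siControl untreated libraries. It passed the count filter through DXR libraries alone (5 of 9, and 0 of 9 untreated), so its call is given as a description. The median of the 6 type IV collagen genes was 1.52. Of 9 tested genes that neighbour the 3 collagen pairs on the chromosomes, 1 rose and 5 fell, with a median of -0.18. MFF, near the pair of COL4A3 and COL4A4, fell by 0.22. ANKRD10 and ING1, near COL4A2, fell by 0.70 and 0.58, and NXT2, near COL4A5, fell by 0.66.

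**Figure D4:**
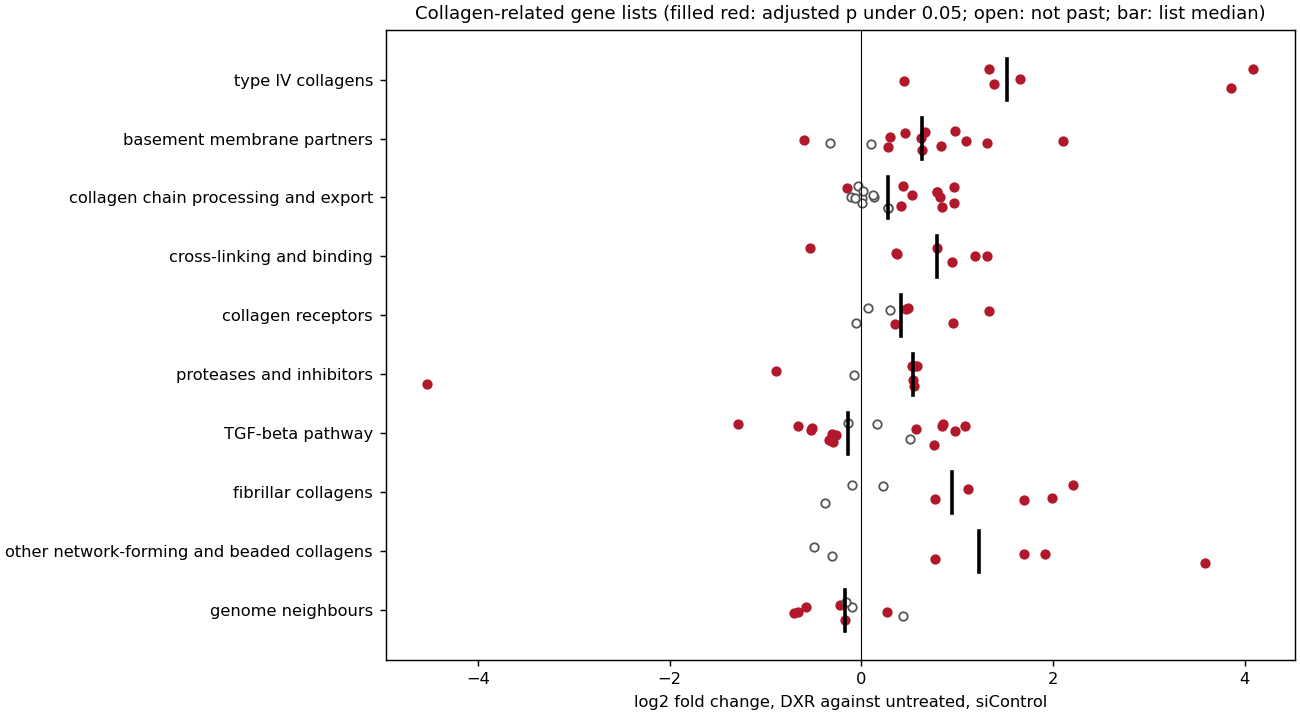
Log2 fold changes with DXR against untreated in siControl cells, 1 point per tested gene, for the 6 type IV collagens at the top and 9 related lists below. Filled red points passed an adjusted p of 0.05, open points did not, and black bars are list medians, from 1.52 for the type IV collagens to -0.18 for genome neighbours.

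The same lists were read under the siRNAs in untreated cells, where 23.3% of all genes were called higher and 23.3% lower with siMondoA, and 24.9% and 23.0% with siMlx. With siMondoA in untreated cells, 1 basement membrane partner rose (NID2) and 2 fell (NID1 and HSPG2), of 14 tested. With siMlx in untreated cells 1 rose (COL18A1) and 6 fell, among them LAMA4 (log2 fold change -0.55), HSPG2 (-0.46), NID2 (-0.38) and LAMB2 (-0.32). Of the 20 processing genes, 4 rose and 6 fell with siMlx in untreated cells (median 0.016), and 2 rose and 3 fell with siMondoA. The 4 that rose with siMlx were COLGALT1 (0.66), KLHL12 (0.43), CRTAP (0.25) and PPIB (0.20). P3H2, which encodes a prolyl 3-hydroxylase that acts on collagen IV, fell by 1.63 with siMlx in untreated cells (adjusted p = 7.62e-07 by edgeR) and by 0.73 in DXR-treated cells (adjusted p = 0.00282 by edgeR). MIA3 fell with siMlx in both states, by 0.65 and 0.71, and rose with siMondoA in untreated cells by 0.25. COLGALT2, a collagen galactosyltransferase gene, fell with siMondoA in both states, by 1.33 in untreated cells and by 1.05 in DXR-treated cells. Of 8 tested collagen receptors, 1 rose (DDR1, 0.21, adjusted p = 0.0258 by edgeR) and 4 fell with siMlx in untreated cells, among them DDR2 (log2 fold change -1.02) and ITGA10 (-1.96).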

How the data were processed

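Groups come from the labels. The submitters' processing notes name bcl2fastq, TopHat2 2.1.1 and the GRCh38 build. Not given in the sources used here are the counting program, its annotation and its use of strand. The authors deposited read counts per gene and RPKM for the same 18 libraries. Each deposited RPKM value fitted its count, with an implied gene length whole within 0.01 bases in all 24846 genes with a count. RPKM served for levels and ratios between genes. Levels in RPKM were not tested across genes, while log2 ratios of RPKM were tested by exact permutation.

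The count tests used edgeR 4.0.16 under R 4.3.3 (filterByExpr by group, TMM scaling, all 18 libraries, 1 mean per group, two-sided quasi-likelihood tests, Benjamini-Hochberg adjustment over 13676 genes, threshold 0.05). There were 12 residual degrees of freedom, and the biological coefficient of variation was 7.42%. The fit was tested on simulated data. SE is the standard error of the log2 fold change. DESeq2 1.42.0, other scalings and filters, the comparison's groups alone, a replicate block and leaving out each library were alternatives. No 2 replicates were near-copies, with a chi-square per gene of 3.75 to 16.4 over 18 pairs.

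The library names carry matching end numbers in every group, in the order of the replicate numbers. The labels do not say what these numbers mean, so a shared culture or day is possible but not stated. Deviations of same-numbered libraries from their group means correlated at -0.102 to 0.330 over 45 pairs. All 3 pairs were over 0.1 for siMondoA and siControl in each treatment, and for siMlx with siControl and siMondoA with siMlx in DXR, and the blocked value stands beside a result there where it changes the call.

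The 6 members, the 9 gene lists and the marker lists were chosen with earlier results of these data known. Named genes are the members, MLXIP and MLX, up to 4 genes per list and direction by smallest p among those past the threshold in the 5 comparisons with siControl, and the 5 genes most like each member by Pearson's r. SERPINH1 and COL1A2 were named after their values were seen, and some genes the rule names are not reported here. The ratio tests were added after the ratios were seen. Older names of list genes were matched through RefSeq (CCN2 is listed as CTGF). Promoter windows come from RefSeq on GRCh38.p14, for all 6 members. Figures were drawn with matplotlib 3.10.9.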

Additional observations from a re-analysis of the deposited data

How the results depend on the processing

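The rises of COL4A1 to COL4A5 with DXR kept their direction and their call under every alternative run, with all 3 siRNAs. Over all called values of the 6 genes, 157 alternatives kept the call and 3 lost it, apart from fits that left out a library, of which 123 kept it and 15 lost it. The 3 losses were those of COL4A3 with siMlx in untreated cells, at -1.22 with upper-quartile scaling, -1.25 with the replicate block and -1.31 with DESeq2 (log2 fold changes, as are the values that follow). Without the low-count filter, COL4A1 passed for siMondoA against siControl (0.21, adjusted p = 0.00503) and against siMlx (0.25) in untreated cells. COL4A6 passed for siMondoA in untreated cells at 0.45 with upper-quartile scaling, 0.38 without the filter and 0.39 with its groups alone, and COL4A1 against siMlx at 0.27 with its groups alone. In DXR-treated cells without the filter, COL4A2 passed for siMondoA against siControl (-0.21, adjusted p = 0.00831) and against siMlx (-0.27), and COL4A4 for siMlx against siControl (-0.37, adjusted p = 2.47e-05) and siMondoA against siMlx (0.36). The replicate block gave COL4A4 -0.38 and 0.37 in these comparisons, both past the threshold. It changed no other call of the 6 genes where all same-numbered pairs correlated at over 0.1. Elsewhere, the block brought the interaction with siMlx past the threshold for COL4A4 (0.81, adjusted p = 0.0223) and COL4A5 (0.32, adjusted p = 0.0254). Without the filter these were 0.88 and 0.34, and DESeq2 gave 0.34 for COL4A5. Values near 0 changed sign for COL4A1 with siMlx in untreated cells (0.0076, upper-quartile scaling), and with groups fitted alone for COL4A5 with siMlx in DXR (-0.0016) and COL4A6 between siRNAs in DXR (0.0029). The correlation of COL4A5 and COL4A6 was 0.16 as Spearman's rho. The cause of these shifts was not tested.

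Leaving out 1 library at a time gave the following ranges. For siMondoA against siControl in untreated cells they were -0.054 to 0.13 for COL4A2, -0.48 to 0.19 for COL4A4 and 0.33 to 0.48 for COL4A6. For siMlx there they were -0.16 to 0.055 for COL4A1, -0.25 to 0.016 for COL4A2, -1.69 to -0.89 for COL4A3 and -1.53 to -0.86 for COL4A4. COL4A6 with DXR ranged from 0.27 to 0.54 with siControl and from -0.22 to 0.049 with siMlx. In DXR-treated cells, siMondoA gave -0.11 to 0.19 for COL4A1 and -0.19 to 0.17 for COL4A4, and siMlx gave -0.028 to 0.26 for COL4A1, -0.13 to 0.20 for COL4A2, -0.59 to -0.19 for COL4A4 and -0.043 to 0.075 for COL4A5. For siMondoA against siMlx, untreated cells gave 0.85 to 1.30 for COL4A4 and -0.47 to -0.20 for COL4A6. DXR-treated cells gave -0.23 to 0.042 for COL4A1, -0.49 to -0.078 for COL4A2, 0.19 to 0.59 for COL4A4 and -0.17 to 0.13 for COL4A6. The interaction with siMondoA was -0.21 to 0.46 for COL4A4, and that with siMlx was -0.060 to 0.31 for COL4A2, 0.77 to 1.56 for COL4A3 and 0.23 to 0.39 for COL4A5. Between 918 and 1384 genes passed for the interaction with siMondoA, the lowest without siMondoA untreated replicate 1. Depth limits COL4A3 in untreated cells most, at 2 to 16 counts a library.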

Other observations

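MLX, whose product pairs with MondoA, stood higher with siMondoA than with siControl. It averaged 49.2 ± 2.6 CPM with siMondoA and 26.3 ± 0.95 CPM with siControl in untreated cells (SD, n = 3 each; log2 fold change 0.91, adjusted p = 5.25e-10 by edgeR). In DXR-treated cells it averaged 43.8 ± 1.4 CPM with siMondoA and 26.5 ± 0.21 CPM with siControl (log2 fold change 0.72, adjusted p = 5.72e-08 by edgeR). The siMondoA libraries thus combine low MLXIP with high MLX RNA, while MLXIP with siMlx did not pass the test in untreated cells (log2 fold change 0.17, adjusted p = 0.119 by edgeR).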
